A study of Mus musculus with 12 samples.

Results

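The comparison of tumours given Complex 1 with radiation against tumours given radiation alone used 6 of the 12 RNA-seq libraries of the series: 3 of the combination and 3 of radiation, chosen by their treatment labels. The tumours were of CT26, a cell line from a colon carcinoma of a BALB/c mouse, grown in mice, and bulk total RNA was sequenced. Both groups received radiation, and only the combination also received Complex 1, which the series title describes as a platinum complex activated by X-rays. The other 6 libraries (3 of Complex 1 without radiation and 3 of untreated controls) served to estimate the spread and to set the compound's change without radiation beside its change with it. The labels give no dose, no time, no age of the mice and no statement of whether a sampled tumour lay in the irradiated field. Whether each library is from its own mouse is not stated either, and p-values therefore reflect only the variation among these libraries.

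CXCR2 is the chemokine receptor that draws neutrophils out of the blood, and its ligands Cxcl1, Cxcl2, Cxcl3 and Cxcl5 are made by tumour, stromal and myeloid cells when NF-kB is activated, for example by interleukin-1. Granulocyte colony-stimulating factor (Csf3) drives neutrophil production and acts through the receptor Csf3r. Interleukin-6, oncostatin M and leukaemia inhibitory factor signal through gp130 and STAT3, and acute phase genes such as Saa3, Lcn2 and Hp are known targets of that signal and of C/EBP factors. Neutrophils in turn are rich in S100a8 and S100a9, the subunits of calprotectin.

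Genes of these kinds rose in combination tumours relative to radiation tumours. S100a8 and S100a9, 4 ligands of CXCR2, Cxcr2 itself, Csf3 and its receptor, and the cytokines Il1b, Il1a, Osm, Lif and Il6 rose, while no gene of the type I interferon, interferon-gamma, T cell, cytotoxic, p53 or DNA repair lists passed the test. With no filter on low expression, edgeR did call members of some of these lists: 9 cytotoxic, 2 type I interferon, 2 T cell, 3 p53 arrest and feedback genes and 1 p53 repair and metabolism gene, all higher. All of these genes were past the filter, and that fit called 389 genes higher and 140 lower in all. DESeq2 called 1 gene of these lists, Btg2 of p53 arrest and feedback. The change was small in extent: 84 genes rose (0.615% of the 13668 genes tested) and 5 fell (0.0366%), 89 in either direction (0.651%), at a Benjamini-Hochberg adjusted p under 0.05 in edgeR's quasi-likelihood test. An unadjusted p under 0.05 was reached by 1411 genes. Of the genes called, 59 rose at least 2-fold and none fell that far, and the median log2 fold change of all genes tested was 0.00. In all 89 the 3 combination libraries lay outside the range of the radiation libraries. Over all genes tested, 10.5% had every combination library above every radiation library in FPKM (counts per kilobase of gene and per mega count of the library), and 6.36% had every one below.

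**Figure D1:**
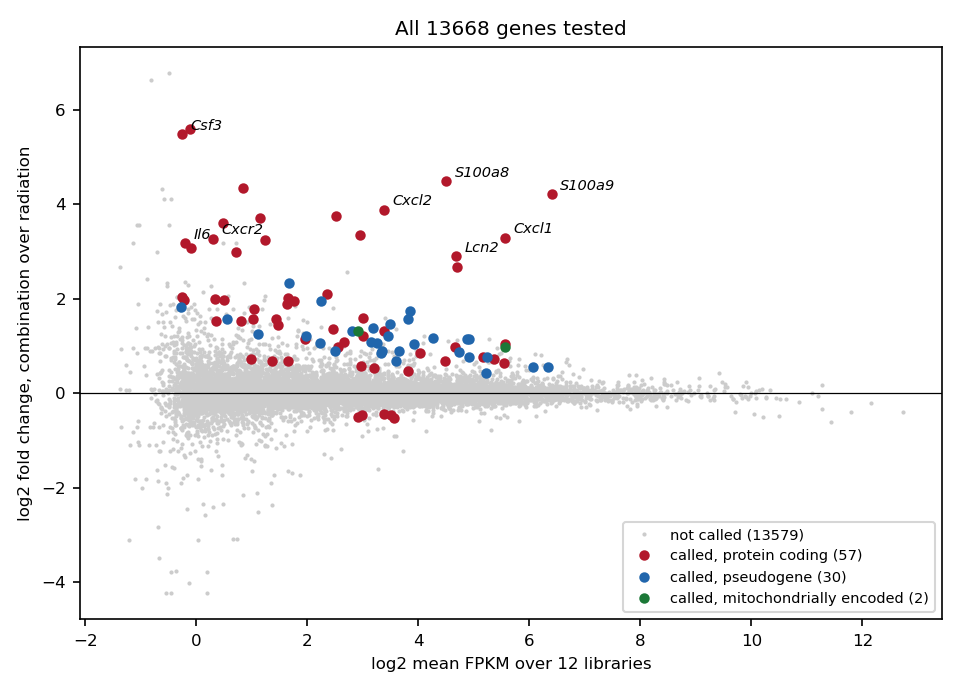
Log2 fold change of combination over radiation (y axis) against the log2 mean FPKM over 12 libraries (x axis) for the 13668 genes tested; each point is a gene, grey where not called and coloured by class where called. The called genes lie almost all above 0: 84 rose and 5 fell.

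Depth was 15.8 to 19.0 M counts per library in the 6 libraries, and replicates differed by more than counting noise (chi-square of counts over its degrees of freedom 4.90 or more). The first principal component of the 6 libraries held 38.9% of the variance and separated the groups, with combination libraries at 23.4, 17.7 and 8.57 and radiation libraries at -16.5, -30.7 and -2.45. The number of calls moved with single libraries: 25 genes rose without radiation replicate 1, 38 without radiation replicate 2, 40 without combination replicate 2 and 41 without combination replicate 1. In those 4 fits, 0, 1, 1 and 0 genes fell. Without combination replicate 3, 70 rose and 2 fell. Of the 89 genes called, 22 passed whichever of the 6 libraries was left out, and 16 of these were protein-coding genes that rose: S100a8, S100a9, Cxcl2, Cxcr2, Osm, Il1b, Il1f9, Il1rl1, Lcn2, Clec4e, Csf3r, Hdc, Hp, Socs3, St3gal1 and Angptl4. The epithelial markers Epcam, Cdh1, Krt7, Krt8 and Krt19 were below the expression filter in these tumours. They belong to a list of 13 CT26 tumour and epithelial genes, of which 7 were tested and 0 passed. That list summed to 1591 to 1758 FPKM in combination and 1502 to 1709 FPKM in radiation libraries.

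The CXCR2 ligands are first, because 3 of them share a stretch of promoter. They lie together on chromosome 5 in mm39: Cxcl5 at 90907219 to 90909483, Cxcl3 at 90933962 to 90937459, Cxcl1 at 91039100 to 91040974 and Cxcl2 at 91051730 to 91053797. The RefSeq promoter table (GRCm38.p6, 250 bases before to 50 after the start site) had no entry for Cxcl5. The sequences that follow, on the plus strand and 5′ to 3′, are the 110 bases before the start site of the other 3 ligands and of Il6. They are shown because these promoters hold the letters that NF-kB sites carry, and capitals mark every base of a match, on either strand, to GGGA and TTCC with any 2 bases between them. In Cxcl1, Cxcl2 and Cxcl3 a match on each strand overlaps the other, and in Il6 there is 1 match.
Cxcl1 (chr5:90891135-90891244): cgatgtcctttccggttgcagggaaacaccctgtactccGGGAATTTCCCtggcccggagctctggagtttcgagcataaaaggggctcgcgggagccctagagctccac
Cxcl2 (chr5:90903789-90903898): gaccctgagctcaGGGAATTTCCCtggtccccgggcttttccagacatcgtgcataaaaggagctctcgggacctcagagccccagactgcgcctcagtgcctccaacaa
Cxcl3 (chr5:90785991-90786100): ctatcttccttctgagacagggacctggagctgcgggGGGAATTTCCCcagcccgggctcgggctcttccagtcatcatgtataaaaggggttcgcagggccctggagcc
Il6 (chr5:30013004-30013113): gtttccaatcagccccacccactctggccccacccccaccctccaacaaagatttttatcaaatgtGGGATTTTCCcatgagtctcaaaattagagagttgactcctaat
The capitals begin 71 bases before the start site in Cxcl1, 97 in Cxcl2, 73 in Cxcl3 and 44 in Il6.

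The 4 ligands rose with log2 fold changes of 3.30 to 3.89. Cxcl2 was at 33.1, 22.1 and 17.1 FPKM in the combination libraries, against 1.40, 0.71 and 2.67 FPKM in the radiation libraries. Its lowest combination library lay well above its highest radiation library, and its log2 fold change was 3.89 ± 0.45 (SE, adjusted p = 0.0034). Cxcl1, the most abundant ligand, was at 246, 81.0 and 104 FPKM in combination, against 12.5, 6.42 and 24.4 FPKM in radiation tumours (log2 3.30 ± 0.51, adjusted p = 0.0098). Combination replicate 1 stood above the other combination libraries in it, and the groups did not overlap. Cxcl5 was at 41.9, 13.9 and 14.5 FPKM in combination and 1.20, 1.44 and 4.09 FPKM in radiation libraries (log2 3.36 ± 0.50, adjusted p = 0.0082). Cxcl3 was at 9.22, 3.47 and 3.05 FPKM in combination and 0.27, 0.17 and 0.74 FPKM in radiation libraries (log2 3.72 ± 0.55, adjusted p = 0.0082). Without radiation replicate 1 the ligands Cxcl1, Cxcl3 and Cxcl5 missed the threshold (adjusted p = 0.076, 0.065 and 0.055) with log2 fold changes of 3.20, 3.51 and 3.06, and only Cxcl2 stayed called. Ppbp, a platelet ligand of the same receptor, had a log2 fold change of 1.21 ± 0.41 and did not pass (adjusted p = 0.32). Thus 4 of the 5 tested ligands of a list of 6 rose, with a list median of 3.36. With robust estimation of the spread 2 of them passed, Cxcl2 and Cxcl3.

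Cxcr2, the receptor, was at 4.78, 2.90 and 2.0 FPKM in combination tumours, against 0.40, 0.31 and 0.26 FPKM in radiation tumours. The groups were far apart, with a log2 fold change of 3.28 ± 0.38 (adjusted p = 0.0034). Csf3r, the receptor of granulocyte colony-stimulating factor, was at 18.3, 13.3 and 14.1 FPKM in combination and 7.40, 4.82 and 7.21 FPKM in radiation libraries (log2 1.21 ± 0.18, adjusted p = 0.0073). Fpr1, the receptor for formylated bacterial peptides on phagocytes, is named after its values were seen. It was at 5.53, 5.37 and 5.41 FPKM in combination and 1.64, 1.83 and 2.39 FPKM in radiation libraries (log2 1.45 ± 0.27, adjusted p = 0.026), and its call held only without radiation replicate 3 among the 6 fits that leave out a library.

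Among the granulocyte products, S100a9 was at 291, 194 and 181 FPKM in combination libraries, against 11.1, 2.93 and 21.1 FPKM in radiation libraries (log2 4.23 ± 0.49, adjusted p = 0.0034). S100a8 was at 87.2, 52.3 and 43.3 FPKM in combination, against 2.57, 0.84 and 4.56 FPKM in radiation tumours (log2 4.50 ± 0.49, adjusted p = 0.0034). In both genes every combination library exceeded every radiation library by several fold, and radiation replicate 2 was the lowest of the 6. Lcn2, the siderophore-binding lipocalin of neutrophil granules and the acute phase, was at 78.9, 54.6 and 60.9 FPKM in combination and 10.6, 2.94 and 11.99 FPKM in radiation libraries (log2 2.91 ± 0.37, adjusted p = 0.0046). Clec4e, the receptor Mincle, had 8.86, 6.36 and 3.92 FPKM in combination against 1.15, 1.76 and 1.91 FPKM in radiation tumours (log2 1.96 ± 0.28, adjusted p = 0.0071). Hdc, the histidine decarboxylase that makes histamine, rose by 1.88 ± 0.28 (adjusted p = 0.0082).

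Of the 25 genes of the neutrophil list, 17 were tested and 12 rose, with a list median log2 fold change of 1.98. Over all genes tested 0.615% rose. All gene lists, that of the CXCR2 ligands included, were chosen with earlier results of these data known, so their counts are descriptive. Beyond those above, Retnlg (4.35 ± 0.73), Stfa2l1 (3.24 ± 0.64), Mmp8 (neutrophil collagenase, 1.98 ± 0.34), Clec4d (1.31 ± 0.25) and Wfdc21 passed. Wfdc21 rested on 62 counts in the combination libraries and 1 count in the radiation libraries, a ratio per total count of 66.9 (95% exact interval 11.6 to 2686, counting error only). These 5 genes lost their calls in 2 (Wfdc21) to 5 (Stfa2l1) of the 6 fits that leave out a library, each time including the fit without radiation replicate 1. Il1r2, Trem1, G0s2, Mmp9 and Slfn4 were tested and did not pass. DESeq2 called 14 members of the list higher, with Il1r2, Trem1 and Mmp9 but without Wfdc21. The replicate block gave 11, with Il1r2 but without Clec4d and Stfa2l1, and robust estimation gave 11, without Clec4d. The 2 other scalings each gave 13, with Il1r2 added. With no filter 18 were called, 17 of them past the filter. For Mmp9, 4.55, 3.21 and 3.60 FPKM in combination stood against 2.30, 1.48 and 2.49 FPKM in radiation tumours (log2 0.84 ± 0.24, adjusted p = 0.19). The other 8 genes were below the filter, among them the granule genes Ngp, Camp, Ltf, Elane and Mpo of immature neutrophils and Ly6g, a marker of mature ones. Ly6g had 4, 1 and 3 counts in the combination libraries and 0 in each radiation library, and no gene of the list was at 0 in all 12. Without radiation replicate 1 only 7 members passed.

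**Figure D2:**
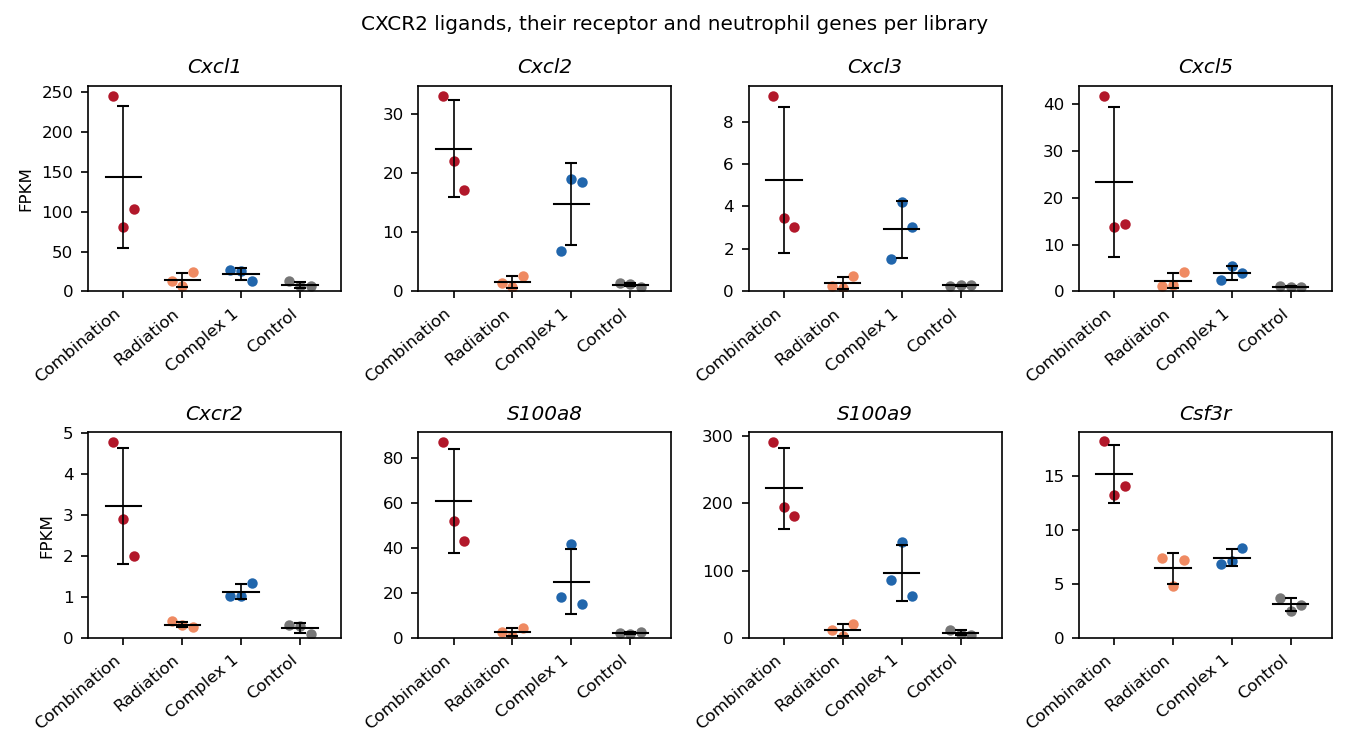
FPKM per library of 4 CXCR2 ligands, Cxcr2 and 3 neutrophil genes, on a linear y axis per gene, in the combination, radiation, Complex 1 and control groups; points are libraries, long bars the mean and whiskers the SD of 3. Combination libraries lie above radiation libraries in all 8 genes, and Cxcl1 reaches 246 FPKM in combination replicate 1.

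The summed FPKM of the 25 neutrophil genes was 385 to 635 in combination libraries and 58.8 to 91.0 in radiation libraries. In bulk RNA, more cells of a type and more RNA per cell cannot be told apart. Like the called cytokine genes that follow, these sums were higher in every combination library than in every radiation library. Combination replicate 1 was highest in the sums (635, 445 and 385 FPKM) and in Il1b, Il1a, Osm, Lif, Il6 and Csf3. Il1b and Il1a followed the order of the sums within both groups, and Osm, Lif, Il6 and Csf3 did not. Of the 52 risen protein-coding genes that share under 50% of their sequence with other loci, combination replicate 1 was highest in 46. Radiation replicate 2 was lowest in 33 of them. The part of neutrophil cells in the cytokine values was not tested. The macrophage and monocyte list summed to 2834 to 3073 FPKM in combination and 2797 to 2975 FPKM in radiation libraries, overlapping ranges, and 0 of its 27 tested genes were called (median 0.11, 3 with an unadjusted p under 0.05). Cd14 alone was called, higher, by DESeq2 and without combination replicate 3, and with no filter 2 genes were called higher and 1 lower. Adgre1, which encodes F4/80, was at 39.3, 38.2 and 32.9 FPKM in combination and 31.9, 28.4 and 35.7 FPKM in radiation tumours.

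Among the interleukin-1 family, Il1b was at 74.1, 53.9 and 43.1 FPKM in combination libraries, against 9.33, 5.40 and 11.7 FPKM in radiation libraries (log2 2.68 ± 0.38, adjusted p = 0.0062). With robust estimation of the spread Il1b was not called. Il1a was lower in level, with 6.78, 3.60 and 3.22 FPKM in combination and 1.24, 1.23 and 1.41 FPKM in radiation tumours (log2 1.78 ± 0.31, adjusted p = 0.021). Il1f9, which encodes interleukin-36 gamma, was at 4.56, 3.74 and 1.99 FPKM in combination and 0.27, 0.16 and 0.39 FPKM in radiation libraries (log2 3.60 ± 0.46, adjusted p = 0.0046). None of the 3 overlapped between the groups. Il1rl1, the interleukin-33 receptor ST2, had a smaller and tighter difference, with 62.7, 50.7 and 51.7 FPKM in combination and 31.1, 28.6 and 36.0 FPKM in radiation tumours (log2 0.77 ± 0.10, adjusted p = 0.0046). Nlrp3 (1.14 ± 0.23) and Mefv (1.52 ± 0.28), the inflammasome sensors NLRP3 and pyrin, rose with Il1b, so that 3 of 18 tested genes of the pyroptosis and necroptosis list passed (list median 0.13). Nlrp3 kept its call in 1 and Mefv in 2 of the 6 fits that leave out a library, and both lost it without radiation replicate 1 or 2 or combination replicate 1 or 2.

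Of the cytokines that signal through gp130, Osm was at 8.69, 4.71 and 6.77 FPKM in combination libraries, against 1.25, 1.72 and 1.94 FPKM in radiation libraries (log2 2.02 ± 0.25, adjusted p = 0.0043). Lif was at 13.5, 9.37 and 10.5 FPKM in combination and 5.67, 4.35 and 5.54 FPKM in radiation tumours (log2 1.08 ± 0.18, adjusted p = 0.016). Il6 was at 4.96, 1.21 and 1.27 FPKM in combination and 0.18, 0.43 and 0.18 FPKM in radiation tumours (log2 3.18 ± 0.56, adjusted p = 0.022). No combination library of these 3 genes fell within the radiation range, and combination replicate 1 was highest in each. Outside the combination libraries Il6 was under 1 FPKM throughout, so it passed the expression filter only through them. For Il6 the lack of overlap was therefore set by the filter and adds nothing to its test. Csf3 had 180 counts over the combination libraries and 4 over the radiation libraries, a ratio per total count of 48.6 (95% exact interval 18.6 to 180, counting error only). Its levels were 4.82, 1.10 and 1.73 FPKM in combination and 0, 0 and 0.15 FPKM in radiation tumours (log2 5.48 ± 0.85, adjusted p = 0.010). In total, 6 of 23 tested genes of the inflammatory cytokine list rose and none fell (median 0.63). With no filter 13 rose, and 2 rose without radiation replicate 1. There Il6, Csf3 and Il1a had adjusted p of 0.130, 0.072 and 0.111, and without radiation replicate 2 that of Lif was 0.084. Calls were also lost for Il6 without radiation replicate 2 or 3, for Csf3 without radiation replicate 2, for Il1a without radiation replicate 2 or 3 or combination replicate 1, and for Lif without radiation replicate 1 or combination replicate 1.

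**Figure D3:**
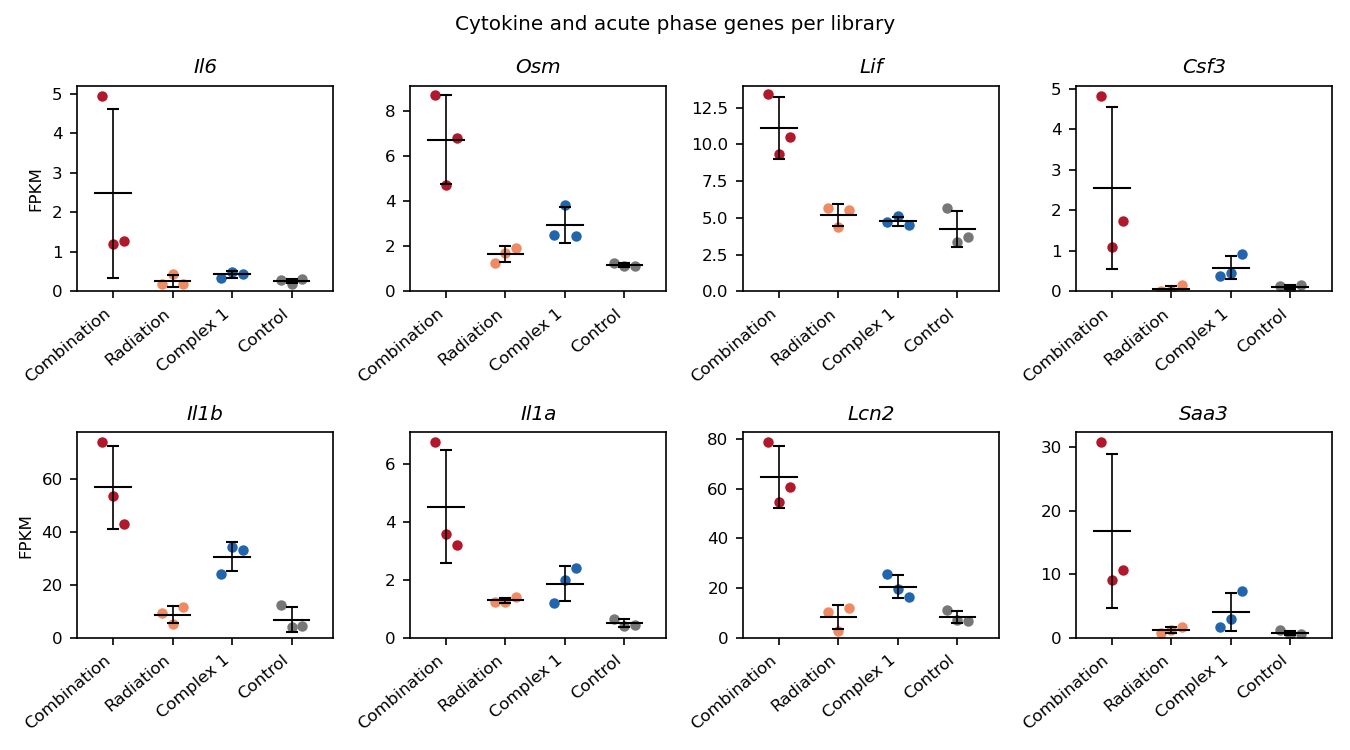
FPKM per library of 6 cytokine genes and the acute phase genes Lcn2 and Saa3, on a linear y axis per gene, in the combination, radiation, Complex 1 and control groups; points are libraries, long bars the mean and whiskers the SD of 3. In Il6, Lif and Csf3 the combination libraries stand above those of all 3 other groups. Il6 passed the expression filter only through its combination libraries.

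Saa3, the acute phase protein serum amyloid A3, was at 30.8, 9.13 and 10.6 FPKM in combination libraries, against 0.75, 1.24 and 1.67 FPKM in radiation libraries (log2 3.76 ± 0.59, adjusted p = 0.011), and it missed the threshold without radiation replicate 1 (adjusted p = 0.079) or radiation replicate 2. The next genes are named after their values were seen. Hp, haptoglobin, was at 16.6, 7.63 and 8.65 FPKM in combination and 2.88, 2.60 and 2.10 FPKM in radiation libraries (log2 2.09 ± 0.27, adjusted p = 0.0049). Socs3, the inhibitor induced by STAT3, was at 91.7, 68.5 and 70.1 FPKM in combination and 34.5, 32.0 and 43.5 FPKM in radiation tumours (log2 1.05 ± 0.14, adjusted p = 0.0050). Neither overlapped between the groups. Steap4, a metalloreductase (1.99 ± 0.31), Lrg1, an acute phase glycoprotein (1.58 ± 0.28), and Cebpd, a C/EBP factor of the acute phase (0.98 ± 0.18), also rose. So did Angptl4, an inhibitor of lipoprotein lipase (0.86 ± 0.12), Arg2, the mitochondrial arginase (1.37 ± 0.25), Hcar2, the niacin receptor (1.59 ± 0.31), and Ifitm1 (0.63 ± 0.12). Angptl4, Hp and Socs3 passed whichever library was left out, Steap4 lost its call without radiation replicate 1 or 2, and Lrg1, Cebpd, Arg2, Hcar2 and Ifitm1 lost theirs in 4 or 5 of the 6 fits.

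Of 17 genes of the NF-kB and feedback list 1 rose, Nfkbiz, an atypical inhibitor of kappa B, with 38.9, 29.1 and 31.1 FPKM in combination and 23.04, 15.3 and 22.8 FPKM in radiation tumours (log2 0.68 ± 0.14). Its adjusted p lay just under 0.05, and it passed in none of the 6 fits that leave out a library. Bcl3, of the same list, had a log2 fold change of 0.88 ± 0.19 and an adjusted p of 0.055. The list median was 0.23, and 4 of its genes were called higher by DESeq2, 6 with no filter, 3 with the replicate block and 0 with robust estimation. Sod2, the mitochondrial superoxide dismutase and a known NF-kB target, rose by 0.57 ± 0.11 and was the sole call among 26 tested genes of the NRF2 and glutathione list, and it kept its call in 1 of those 6 fits. With no filter 3 genes of that list were called higher and 1 lower. Of 24 AP-1 and immediate early genes none passed, 9 had an unadjusted p under 0.05, and the median was 0.15. DESeq2 called 4 of them higher (Btg2, Fos, Fosl2 and Ier3), edgeR with no filter called 6 higher and 1 lower, and without radiation replicate 3 it called Ier3. Ier3 was nearest, with 83.3, 65.0 and 66.9 FPKM in combination and 38.3, 32.8 and 55.8 FPKM in radiation tumours (log2 0.74 ± 0.17, adjusted p = 0.097).

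The promoters shown above can be read against the other risen genes. Of the 52 protein-coding genes that rose and share under 50% of their sequence with other loci, 37 had a RefSeq promoter. The letters marked there, on either strand, occurred in 5 of the 37 (13.5%: Cxcl1, Cxcl2, Cxcl3, Il6 and Csf3r), against 157 of 8927 tested protein-coding genes with a promoter (1.76%). Cxcl1, Cxcl2 and Cxcl3 are neighbouring ligand genes that hold the same matched stretch, so their matches do not count as independent. TTGCNNAA, letters of C/EBP sites, occurred in 9 (24.3%), among them Lcn2, Saa3, S100a9 and Il6, against 888 of the 8927 (9.95%). TGANTCA of AP-1 sites occurred in 4 (10.8%) against 568 (6.36%), and TTCCNGGAA of STAT sites in 1 (2.70%, Steap4) against 140 (1.57%). These matches describe letters in 300-base windows and no binding was measured.

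Lymphocyte genes had mostly positive values without a call. Of 22 tested cytotoxic and NK genes 21 had a positive log2 fold change (median 0.55), 10 had every combination library above every radiation library, 3 had an unadjusted p under 0.05, and 0 passed in edgeR or DESeq2. Over all 13668 genes tested, 10.5% had every combination library above every radiation library, and 1411 had an unadjusted p under 0.05. With no filter edgeR called 9 of the cytotoxic and NK genes higher, all past the filter, among them Gzmb, Prf1 and Nkg7. That fit called 389 genes higher and 140 lower in all. Gzmb, granzyme B, was at 82.9, 83.1 and 114 FPKM in combination and 69.3, 45.7 and 70.8 FPKM in radiation tumours (log2 0.57 ± 0.36, adjusted p = 0.61). Cd8a was at 5.45, 7.35 and 8.63 FPKM in combination and 7.65, 1.06 and 7.41 FPKM in radiation libraries. The groups overlap, and radiation replicate 2 stood far below the other libraries. The cytotoxic list summed to 520 to 696 FPKM in combination and 239 to 530 FPKM in radiation libraries, and the T cell list to 80.5 to 94.9 FPKM in combination and 32.3 to 85.4 FPKM in radiation libraries. Radiation replicate 2 was the lowest in both. Of 20 tested T cell genes 19 were positive (median 0.46), 1 had an unadjusted p under 0.05 and 0 passed in edgeR or DESeq2, while 2, Cd2 and Cd3g, passed in edgeR with no filter. Without radiation replicate 2 the median log2 fold change was 0.26 for the cytotoxic list and 0.19 for the T cell list.

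None of the 38 genes of the type I interferon list was called (median 0.08, 1 with an unadjusted p under 0.05), and Isg15 was at 200, 201 and 154 FPKM in combination against 131, 132 and 169 FPKM in radiation libraries (log2 0.34 ± 0.24). Isg15 and Oas3 were called higher with no filter. Ifitm1, an interferon-induced gene outside that list, rose as given above. None of 29 interferon-gamma genes was called or had an unadjusted p under 0.05 (median 0.04). Cxcl9, the ligand of the T cell chemokine receptor CXCR3, was at 50.9, 49.3 and 53.4 FPKM in combination and 64.9, 37.2 and 68.6 FPKM in radiation tumours. Cd274, which encodes PD-L1, had a log2 fold change of 0.00 ± 0.36. Of 21 tested MHC class I genes 0 passed and 1 had an unadjusted p under 0.05 (median 0.14), and 1, Psmb9, was called higher with no filter.

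Genes of the DNA damage response differed little. None of 18 p53 arrest and feedback genes, 16 p53 death genes or 17 p53 repair and metabolism genes passed (medians 0.09, 0.13 and 0.02; 4, 2 and 1 with an unadjusted p under 0.05). Btg2 of the arrest list was called higher by DESeq2, and with no filter Btg2, Cdkn1a and Plk2 of that list and Pltp of the repair and metabolism list were. Cdkn1a, the p21 inhibitor of cyclin-dependent kinases, was at 85.2, 82.0 and 79.4 FPKM in combination and 56.3, 71.7 and 63.9 FPKM in radiation libraries. These groups do not overlap, and the log2 fold change of 0.34 ± 0.13 did not pass (adjusted p = 0.38). Mdm2, the ligase that degrades p53, had a log2 fold change of 0.03 ± 0.06, and Ccng1, cyclin G1, one of 0.02 ± 0.08. For nucleotide excision repair, the pathway that removes platinum adducts, 0 of 27 genes passed (median -0.02). For Fanconi and BRCA genes 0 of 30 passed (median -0.01), for double-strand break signalling 0 of 28 (median -0.02), and for replication 0 of 36 (median -0.01). Unadjusted p under 0.05 occurred in 1, 1, 2 and 0 of these lists' genes.

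**Figure D4:**
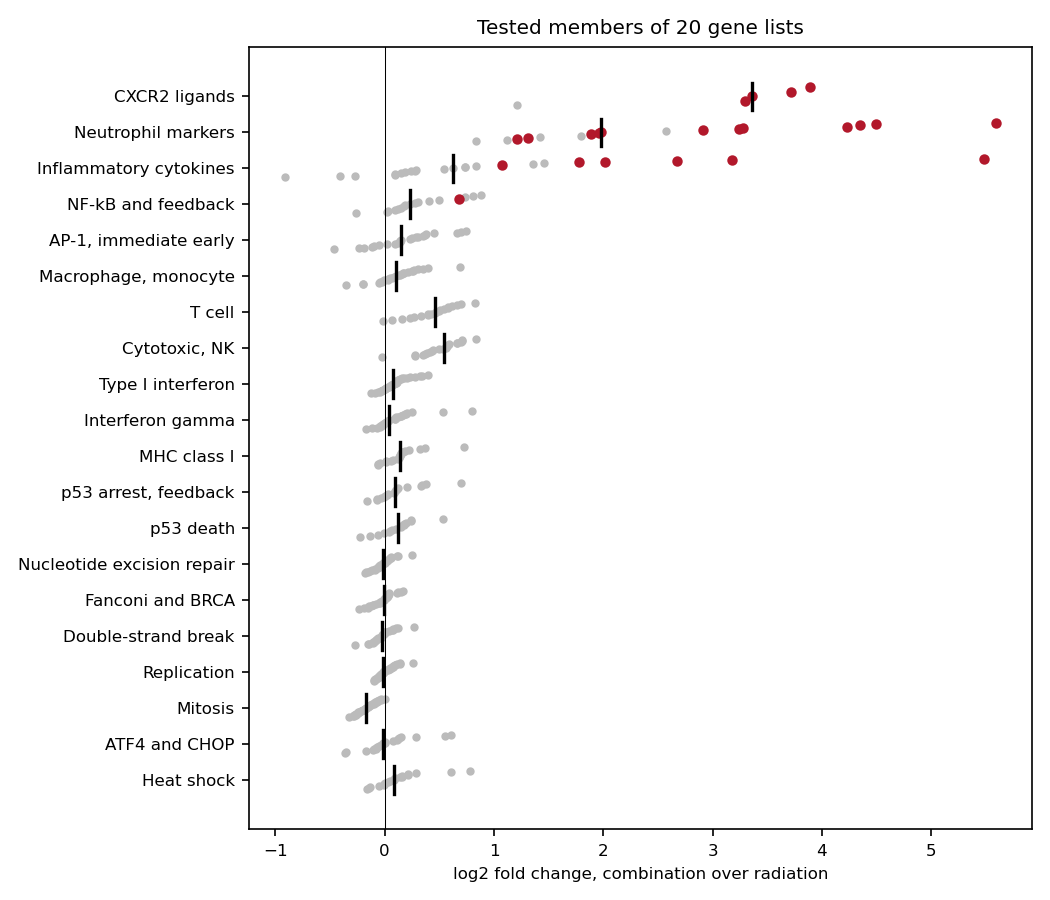
Log2 fold change of combination over radiation (x axis) for the tested members of 20 gene lists (rows); red points passed the adjusted threshold, grey points did not, and black bars mark list medians. The CXCR2 ligand, neutrophil and inflammatory cytokine lists hold most red points, and the interferon, p53 and repair lists hold none.

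Mitotic genes had small negative values without a call. Of 37 genes, 36 had a negative log2 fold change, 9 had every combination library below every radiation library, 14 had an unadjusted p under 0.05, and none passed in edgeR or DESeq2 (list median -0.17). Over all 13668 genes tested, 6.36% had every combination library below every radiation library, and 1411 had an unadjusted p under 0.05. With no filter 1 mitotic gene, Ndc80, was called lower. The list median was -0.08 without radiation replicate 2 and -0.24 without radiation replicate 1, with none called. Prc1, which bundles spindle microtubules, was at 13.4, 14.6 and 14.1 FPKM in combination and 15.7, 18.6 and 15.5 FPKM in radiation libraries (log2 -0.27 ± 0.07, adjusted p = 0.18). Mki67, the proliferation marker, was at 39.0, 43.8 and 46.3 FPKM in combination and 48.5, 58.8 and 45.7 FPKM in radiation tumours, and these overlapped.

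The 5 genes that fell changed little in size. Mastl, the kinase Greatwall that restrains PP2A in mitosis, was at 8.90, 8.79 and 8.18 FPKM in combination and 11.1, 13.3 and 10.6 FPKM in radiation tumours (log2 -0.45 ± 0.08, adjusted p = 0.022). Zc2hc1a (-0.52 ± 0.10), Cplx2, a complexin of vesicle fusion (-0.50 ± 0.10), Tmem200a (-0.45 ± 0.09) and Tenm3, a teneurin (-0.43 ± 0.08), also fell. Each lost its call in at least 5 of the 6 fits that leave out a library, and without radiation replicate 1 or combination replicate 1 none of the 13668 genes tested fell.

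Of 28 tested collagen and matrix genes only Dcn passed, which encodes the proteoglycan decorin, with 56.3, 62.5 and 64.5 FPKM in combination and 40.9, 36.2 and 31.9 FPKM in radiation libraries (log2 0.73 ± 0.13, adjusted p = 0.022). It lost its call without radiation replicate 2 or 3 or combination replicate 2 or 3, DESeq2 called Thbs1 as well, and with no filter 3 genes of the list were called higher and 1 lower. Hba-a1, an alpha globin, was at 2.33, 1.18 and 1.24 FPKM in combination and 2.13, 6.69 and 6.21 FPKM in radiation tumours (log2 -1.69 ± 0.54, adjusted p = 0.28). The mitochondrially encoded mt-Atp6 (0.99 ± 0.17) and mt-Nd3 (1.31 ± 0.26) rose, and 99.5% and 98.1% of their 31-base sequences also occur at another locus. They lost their calls in 4 and 5 of the 6 fits that leave out a library, the one without radiation replicate 1 among them. All 13 mitochondrially encoded genes had an unadjusted p under 0.05, 6 positive and 7 negative, with a list median of -0.39. DESeq2 called 4 of them higher and 2 lower, and edgeR with no filter called 5 higher and 7 lower. Their summed FPKM was 13358 to 17304 in combination and 16441 to 24286 in radiation libraries, overlapping ranges.

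Pseudogenes made up 30 of the 84 risen genes. Each had at least 62.8% of its 31-base stretches also present elsewhere, so reads could be assigned to either, and their counts are uncertain. Their log2 fold changes ran from 0.42 to 2.34 (median 1.11). Among 1029 tested pseudogenes 2.92% rose and the median log2 fold change was 0.17, against 0.484% and -0.00 among 11165 protein-coding genes. Pseudogenes took 1.52% to 1.55% of counts in combination libraries and 1.43% to 1.46% in radiation libraries. The same ranges were 1.52% to 1.57% in Complex 1 and 1.44% to 1.53% in control libraries.

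Set beside it, Complex 1 without radiation changed an overlapping set of genes. That comparison shares no library with combination against radiation. In Complex 1 tumours against controls 98 genes rose (0.717%) and 13 fell (0.0951%), 111 in either direction (0.812%). Every Complex 1 library lay above every control library in 11.4% of genes and below in 4.71%. Of the 84 genes that rose with the compound in irradiated tumours, 40 also rose without radiation, which is 47.6% of the first list and 40.8% of the second. These 40 were 19 protein-coding genes with under 50% shared sequence (36.5% and 31.7% of the genes of that kind on the 2 lists), 19 pseudogenes, and mt-Atp6 and mt-Nd3, so most are entries with uncertain counts. All 84 had a positive log2 fold change there. Without control replicate 2, 4 genes rose and 0 fell in Complex 1 against control. Leaving out another library of that comparison gave 24 (without Complex 1 replicate 2) to 195 (without Complex 1 replicate 1) genes that rose. In control replicate 2 Xist, which silences an X chromosome in female cells, had 0.02 FPKM, and it had 9.20 to 14.2 FPKM in the other 11 libraries.

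Some genes had close log2 fold changes in both settings. Cxcl2 was at 33.1, 22.1 and 17.1 FPKM in combination tumours and at 6.85, 19.0 and 18.6 FPKM in Complex 1 tumours, against 1.42, 1.21 and 0.79 FPKM in controls, and its log2 fold change without radiation was 3.65 ± 0.47. Csf3r changed by 1.21 ± 0.18 with radiation and 1.24 ± 0.19 without it. Other genes had larger log2 fold changes in irradiated tumours as values. Il6 was at 0.34, 0.50 and 0.45 FPKM in Complex 1 and 0.29, 0.19 and 0.30 FPKM in control tumours (log2 0.68 ± 0.66, against 3.18 ± 0.56 in irradiated tumours), and it passed the filter only through its combination libraries. Lif was at 4.75, 5.10 and 4.48 FPKM in Complex 1 and 5.68, 3.39 and 3.67 FPKM in control tumours (log2 0.14 ± 0.19, against 1.08 ± 0.18). Il1rl1 was at 29.0, 29.1 and 28.7 FPKM in Complex 1 and 27.1, 25.3 and 29.2 FPKM in control tumours (log2 0.06 ± 0.10, against 0.77 ± 0.10). Values also ran the other way. The macrophage and monocyte list had a median of 0.11 with radiation and 0.40 without it, and 24 of 27 genes were lower with it. The interferon-gamma list had medians of 0.04 and 0.48, with 27 of 29 genes lower. Its sums in Complex 1 tumours were uneven, at 601, 645 and 1739 FPKM.

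The difference between the 2 changes was tested as an interaction. Over the 13668 genes past the filter 0 were called in edgeR (0%), with a smallest adjusted p of 0.939, while 601 had an unadjusted p under 0.05. DESeq2 called 5 higher and 1 lower, and edgeR with no filter called 91 higher and 72 lower. The unadjusted interaction p was 0.00021 for Il1rl1, 0.0033 for Lif, 0.0071 for Socs3, 0.0073 for Lcn2, 0.015 for Il6 and 0.016 for Cxcl1, and none of these 6 passed after adjustment over the 13668 genes. By DESeq2 Il1rl1 passed (adjusted p = 0.010) and the other 5 did not. In edgeR with no filter, a fit of 31727 genes, all 6 passed, with adjusted p of at most 0.00052. For Cxcl1 the log2 interaction was 1.94 past the filter and 1.95 with no filter, while its unadjusted p was 0.016 and 1.4e-48. With such p-values from 3 libraries a group, the calls with no filter are not read as a difference with radiation. Calls for these genes thus depended on the filter and the test.

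**Figure D5:**
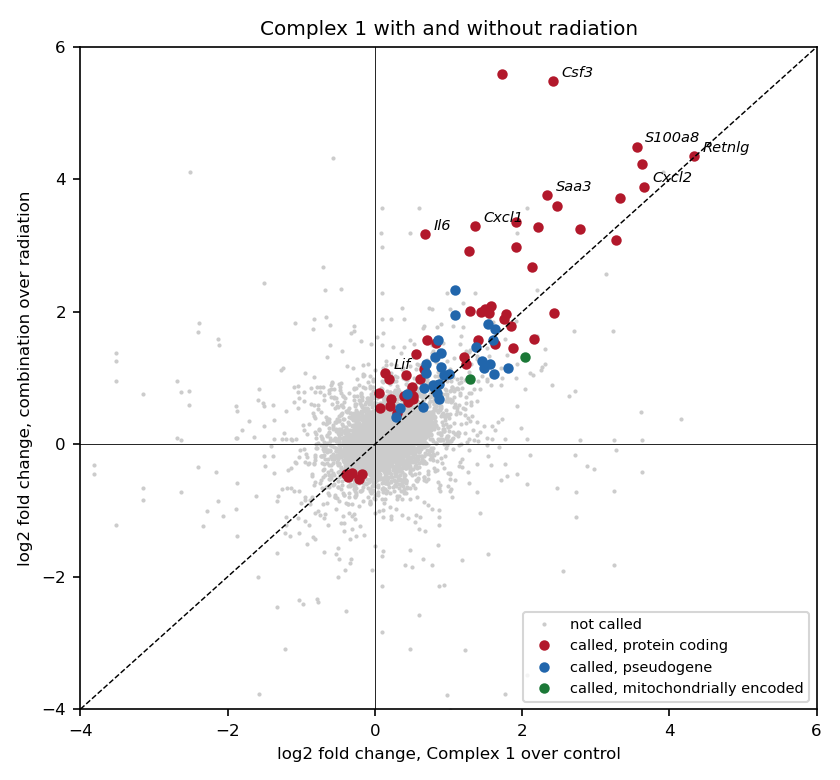
Log2 fold change of combination over radiation (y axis) against that of Complex 1 over control (x axis) for the genes tested, coloured where called in combination against radiation; the dashed line marks equal changes, and 10 genes lie outside the axes. Cxcl2 and Retnlg lie near the line, and Il6, Csf3, Lif and Cxcl1 lie above it.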

How the data were processed

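RNA-seq of CT26 tumours was deposited as 1 table of 55415 genes and 12 libraries, with raw counts and FPKM per library. The tools listed, per the submitters' processing notes, are HTSeq 2.0.1, STAR 2.5.3a and DESeq2, with build mm39. The strand setting of the counting is not given in the sources used here, so a gene's reads cannot be told apart from those of a gene that overlaps it on the other strand. The deposited FPKM equal the deposited counts per kilobase and mega count within 0.005, and are used here only as levels and as a filter. Entries without a symbol held 0.0579% to 0.0706% of counts.

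The 13668 genes with at least 1 FPKM in at least 3 libraries were tested with edgeR 4.0.16 (R 4.3.3, TMM scaling, quasi-likelihood, all 12 libraries, a mean per group), and p-values were Benjamini-Hochberg adjusted over them. DESeq2 1.42.0, other scalings, no filter, robust estimation, only the groups compared, a replicate block and leaving out each library were alternatives. Shared sequence and biotypes come from GENCODE M21, as the percent of 31-base sequences of a gene found at another locus.

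The libraries compared, the 49 gene lists and the tests were chosen with earlier results of these data known. Genes are named where they were called without overlap and were among the 15 per direction with the largest change or the 8 with the smallest p, were called list members or the 2 of a list with the smallest p, or were on a fixed list. Other genes named are stated as such. On simulated counts for combination against radiation with 13668 genes, 56% of 100 genes changed 1.5-fold and 81% of 100 changed 2-fold were called, and 8 unchanged genes (5.52% of calls). Each gene was simulated independently, with no shift shared by the genes of a library, so these rates may not hold for the real libraries. Same-numbered combination and radiation libraries deviated from their group means with correlations of -0.114, -0.048 and -0.204, so the numbers were not taken as pairs. Intervals cover counting error only.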

Additional observations from a re-analysis of the deposited data

How the results depend on the processing

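Combination against radiation gave 84 higher and 5 lower genes. DESeq2 gave 156 and 29, and no filter gave 389 and 140. Leaving out 1 library gave 25 to 70 higher and 0 to 6 lower. Among protein-coding genes with under 50% shared sequence, adjusted over these alone, an alternative chosen after seeing the data, 50 genes were higher. Complex 1 against control gave 98 and 13. DESeq2 gave 244 and 82 there, no filter 591 and 212, only these groups 40 and 5, and the coding genes alone 49 higher, and leaving out 1 library gave 4 to 195 higher and 0 to 41 lower. For the interaction, with 0 calls, DESeq2 gave 5 higher and 1 lower, and no filter 91 and 72. The cause of these differences was not tested. Replicate numbers were not shown to pair the libraries; with them as a block, 72 genes were higher and 6 lower in combination against radiation, and 0 in the interaction. Of the 38 named genes called in combination against radiation, none changed sign under any alternative run, and the block, robust estimation and the fit of only 2 groups each lost 7 calls. At 15.8 to 19.0 M counts, genes such as Wfdc21 and Csf3 had 1 and 4 counts over the radiation libraries, which limits the precision of their fold changes.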
